A study of Mus musculus with 6 samples.

Results

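The genes described here encode core proteins of the spliceosome: the Sm and LSm ring proteins, the U1-specific proteins, and the proteins of the U2 particle with its SF3a, SF3b and U2AF partners. They were taken by gene name from a table of 54532 mouse genes, 33 in all, and each name matched 1 row. RNA was sequenced from the myocardium of wild type C57BL/6 mice at 18 weeks of age, from hearts the study describes as hypertrophic. In 3 samples the hearts had received AAV9-anti-miR-199a TuDs, and in 3 they had received AAV9-EGFP, labelled Ctrl. AAV9 is an adeno-associated virus serotype that reaches heart muscle well. A tough decoy (TuD) is a transcript whose exposed sites bind and hold one microRNA, here miR-199a, and EGFP is a fluorescent protein that stands in as the cargo of the control virus. The comparison addresses how the heart transcriptome differs when this decoy is delivered in place of the control cargo. Sex, dose and the way hypertrophy was induced are not stated in the sources used here, nor whether each sample is a separate animal, so p-values measure only the spread between these samples.

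The spliceosome removes introns from transcripts and is built from small nuclear ribonucleoproteins (snRNPs), each a short RNA with bound proteins. Sm proteins close into a ring around the U1, U2, U4 and U5 RNAs, and the related LSm proteins form a ring on the tail of U6 RNA. U1 marks the start of an intron, U2AF reads the end of it, and U2 with SF3a and SF3b clamps the branch point, whose adenosine starts the first chemical step. Cardiomyocytes depend on this machinery for the long, alternatively spliced transcripts of the sarcomere.

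Levels below are normalised FPKM, put on a common scale across libraries by a size factor. FPKM is reads per kilobase of gene length and per megaread of a library total, here the total implied by the deposited values. Libraries held 15.2 to 18.2 M reads assigned to genes (M, megareads). The implied totals differed from these reads, at 15.4, 14.4 and 16.8 M in TuD replicates 1 to 3. In control replicates 1 to 3 they were 19.2, 19.4 and 18.8 M. TuD libraries averaged 16.04 ± 0.73 M and control libraries 18.1 ± 0.12 M (SD, n = 3 each). Of the 33 genes, 32 reached a deposited FPKM of 1 in at least 3 of the 6 samples and were tested, with 83 to 3655 reads per gene and library. The gene below that level was Lsm5, with 3 to 9 reads per library.

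Of the 32 genes tested, 13 were higher in TuD hearts at an adjusted p under 0.05 (limma, with Benjamini-Hochberg correction across every tested gene), 0 were lower and 19 did not pass. These 13 make up 40.6% of the 32, against 15.0% higher and 14.3% lower among all 10460 tested genes, and 29.3% called in either direction. At an unadjusted p under 0.05 (limma) 16 genes were higher and 1 lower, Sf3b3. The share of all tested genes at that unadjusted threshold was not computed, so these counts have no background beside them. Rescaling to TPM, which brings every library to the same length-scaled total, gave 6 higher and 5 lower, and limma-voom on recovered reads gave 12 higher and 2 lower. Those scalings moved the median of all genes to -0.33 and -0.13 on the log2 scale, against 0.01 in the fit reported here. The median log2 fold change of the 32 was 0.33, which stood 0.32 above the median of all genes. Under the TPM rescaling it stood 0.30 above and under voom 0.34 above. Leaving out control replicate 2 left 6 genes higher (18.75%, against 8.53% of all tested genes). Leaving out control replicate 3 left 7 (21.9%, against 9.25%).

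All 3 TuD values lay above all 3 control values for 16 of the 32 genes, against 23.5% of all tested genes. All 3 TuD values lay below the controls for 2 of the 32, Sf3b3 and U2af2, against 24.4% of all tested genes. The libraries did not contribute alike: TuD replicate 2 was the highest of the 6 for 21 of the 32 genes, and for 25.0% of all tested genes. Control replicate 2 was the lowest for 19 of the 32, and for 18.8% of all tested genes.

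**Figure D1:**
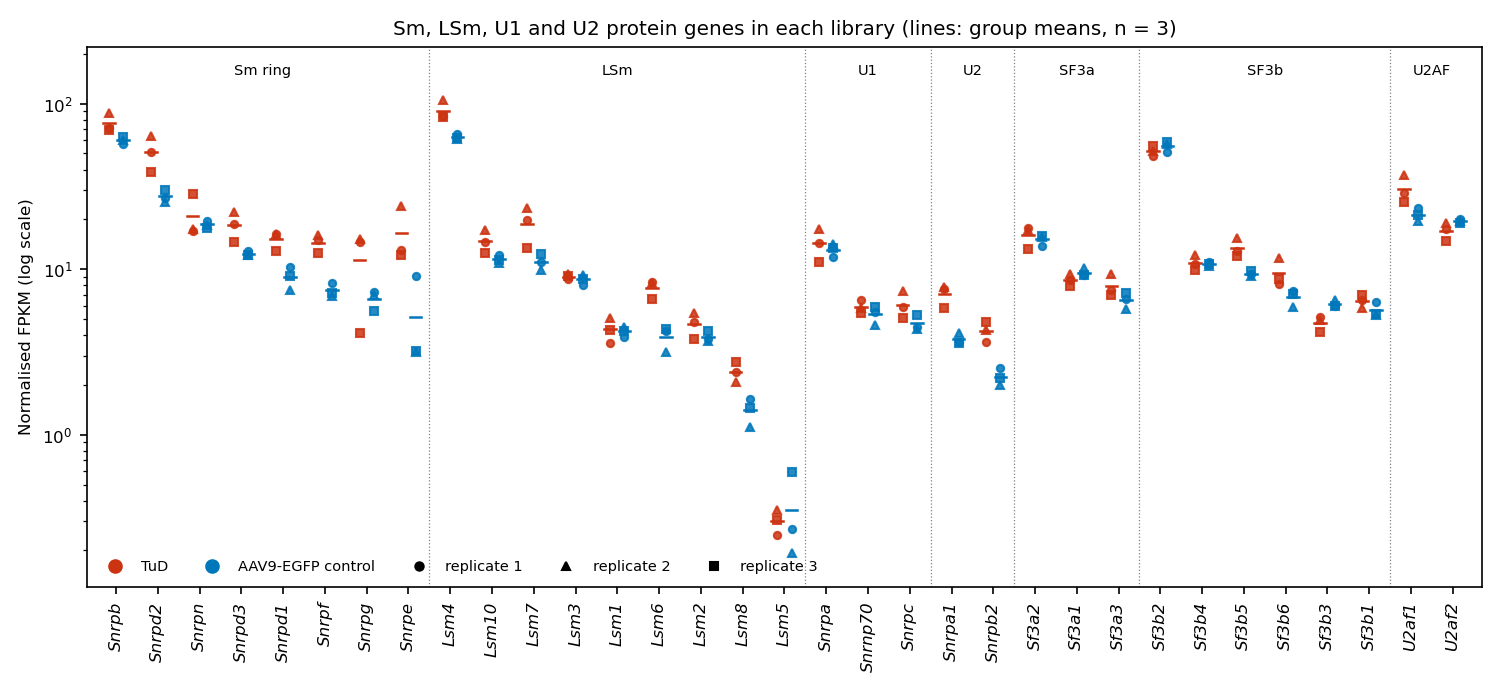
Normalised FPKM (log axis) of the 33 genes in each library, grouped by role, with TuD hearts in red left of control hearts in blue, 1 symbol per replicate and a line at each group mean. The groups separate for most Sm ring genes and both U2 A' and B'' genes, while Lsm5 sits below 1 FPKM in all 6 libraries.

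Of the 8 Sm ring genes, 5 were higher (Snrpf, Snrpd1, Snrpd2, Snrpe and Snrpd3) and 0 lower. These 5 make up 62.5%, against 15.0% of all tested genes. The median log2 fold change of the 8 was 0.63. Fold changes ran between 0.13 and 1.68, and those of Snrpb and Snrpn turned negative after rescaling to TPM, that of Snrpn also under limma-voom. Levels of the ring genes, whose products assemble in equal copy number, differed widely in the tissue. Without Snrpn, the highest ring gene exceeded the lowest 6.73-fold in TuD hearts and 11.7-fold in control hearts, per unit of gene length. The control ratio rests on Snrpe and was 19.4-fold without control replicate 1. The TuD ratio rests on Snrpg and was 5.33-fold without TuD replicate 3. Neither ratio counts the reads at near-identical copies of these genes, described below. Copies held 26.3% of the reads of Snrpg with its copies and 19.6% for Snrpe.

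Snrpf encodes SmF, which enters the ring with SmE and SmG. It stood at 14.9, 15.98 and 12.6 FPKM in TuD replicates 1 to 3, against 8.25, 6.88 and 7.21 FPKM in control replicates 1 to 3. Every TuD library lay well above every control library. The log2 fold change was 0.91 ± 0.12 (SE; adjusted p = 0.00344, limma), a 1.88-fold difference.

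Snrpd1 and Snrpd2 encode SmD1 and SmD2, which pair with each other before the ring closes. Snrpd1 gave 16.2, 16.4 and 12.9 FPKM in TuD hearts, against 10.3, 7.50 and 9.05 FPKM in control hearts. Snrpd2 gave 51.1, 64.0 and 38.6 FPKM in TuD hearts, against 27.0, 25.3 and 30.2 FPKM in control hearts. Neither gene overlapped between groups, and for both the lowest TuD value was that of replicate 3. Log2 fold changes were 0.73 ± 0.15 for Snrpd1 (adjusted p = 0.01001, limma) and 0.86 ± 0.18 for Snrpd2 (adjusted p = 0.0106, limma).

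Snrpd3 encodes SmD3, the partner of SmB. It measured 18.8, 22.1 and 14.5 FPKM in TuD hearts, against 12.9, 12.1 and 12.2 FPKM in control hearts. The control values were nearly level and the TuD values spread above them, with a log2 fold change of 0.53 ± 0.15 (adjusted p = 0.0312, limma). Leaving out any 1 of TuD replicates 1 and 2 or control replicates 1, 2 and 3 ended that call, with adjusted p between 0.0651 and 0.0943 (limma). Part of Snrpd3 lies over Gucd1 on the opposite strand, and the strand setting of the counting is not given in the sources used here, so shared reads cannot be told apart.

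Snrpb encodes SmB, the most abundant ring transcript per unit length in both groups. It read 71.0, 87.5 and 69.7 FPKM in TuD hearts, against 57.3, 60.3 and 63.1 FPKM in control hearts. The groups did not overlap, yet the log2 fold change of 0.33 ± 0.12 did not pass (adjusted p = 0.0685, limma). Without TuD replicate 3 it passed at an adjusted p of 0.0471 (limma).

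Snrpn encodes SmN, an imprinted paralog that replaces SmB in rodent brain and heart. It had 17.1, 17.5 and 28.3 FPKM in TuD hearts, against 19.6, 18.6 and 17.8 FPKM in control hearts. The groups overlapped, with TuD replicate 3 far above the other 5 libraries and TuD replicates 1 and 2 at the bottom. The log2 fold change was 0.13 ± 0.19 (adjusted p = 0.640, limma), and without TuD replicate 3 it was -0.11.

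Snrpe encodes SmE and showed the largest fold change of the 32 genes. It had 13.1, 24.2 and 12.2 FPKM in TuD hearts, against 9.15, 3.17 and 3.18 FPKM in control hearts. The groups did not overlap, but control replicate 1 stood far above the other 2 controls and TuD replicate 2 above the other 2 TuD libraries. The log2 fold change was 1.68 ± 0.40 (adjusted p = 0.0171, limma). Leaving out TuD replicate 2, control replicate 2 or control replicate 3 gave adjusted p of 0.0542, 0.0625 and 0.0549 (limma).

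Snrpg encodes SmG. It measured 14.5, 15.2 and 4.13 FPKM in TuD hearts, against 7.32, 7.03 and 5.60 FPKM in control hearts. TuD replicate 3 was the lowest of all 6 libraries while the other 2 TuD libraries were the highest, and the log2 fold change of 0.54 ± 0.42 did not pass (adjusted p = 0.361, limma). Without TuD replicate 3 it was 1.11 (adjusted p = 0.00242, limma).

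Snrpg and Snrpe each have a near-identical copy elsewhere in the genome that holds reads in these libraries. Snrpg (GRCm38, chromosome 6, 86371304 to 86379328, plus strand) and Gm8186 (chromosome 17, 26098872 to 26099257, minus strand, annotated as protein-coding) have the same 231 coding bases with 0 differences, so reads from them can be assigned to either locus and 1 sequence stands for both. Snrpe, on chromosome 1, and Snrpert, a processed pseudogene on chromosome 2, share 98.9% of 279 bases. The shared Snrpg coding sequence is printed 5′ to 3′ from GENCODE release M21, with no capitals since there is no difference to mark.
Snrpg and Gm8186: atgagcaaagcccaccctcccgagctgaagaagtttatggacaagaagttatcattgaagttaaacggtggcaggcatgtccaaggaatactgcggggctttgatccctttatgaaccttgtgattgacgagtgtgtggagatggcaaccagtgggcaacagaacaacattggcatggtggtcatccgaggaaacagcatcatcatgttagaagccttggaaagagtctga

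Reads were split between gene and copy in unequal proportions among the libraries. Snrpg had 348, 346 and 108 reads in TuD replicates 1 to 3, against 217, 218 and 167 reads in control replicates 1 to 3. Gm8186 had 59, 53 and 226 reads in the same TuD libraries, against 39, 33 and 91 reads in the control libraries. TuD replicate 3 was thus lowest for Snrpg and highest for Gm8186. Added together as normalised RPM, the pair gave 26.7, 27.6 and 20.1 in TuD hearts, against 13.6, 12.7 and 13.6 in control hearts. RPM is reads per megaread of the library total implied by the deposited FPKM, divided by the size factor. On this scale the groups no longer overlapped. With the copies' reads added, an alternative chosen after these values were seen, the log2 fold change of Snrpg was 0.85 ± 0.13 (adjusted p = 0.00477, limma).

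For Snrpe the split differed most among the control libraries. Snrpe had 275, 481 and 279 reads in TuD hearts, against 237, 86 and 83 reads in control hearts. Snrpert had 80, 53 and 58 reads in TuD hearts, against 25, 61 and 75 reads in control hearts. Control replicate 1, with the most Snrpe reads of the controls, had the fewest Snrpert reads of all 6 libraries. Together the pair gave a log2 fold change of 1.38 ± 0.27 (adjusted p = 0.00894, limma). Whether reads were misassigned or the copies are transcribed cannot be told apart from these values.

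**Figure D2:**
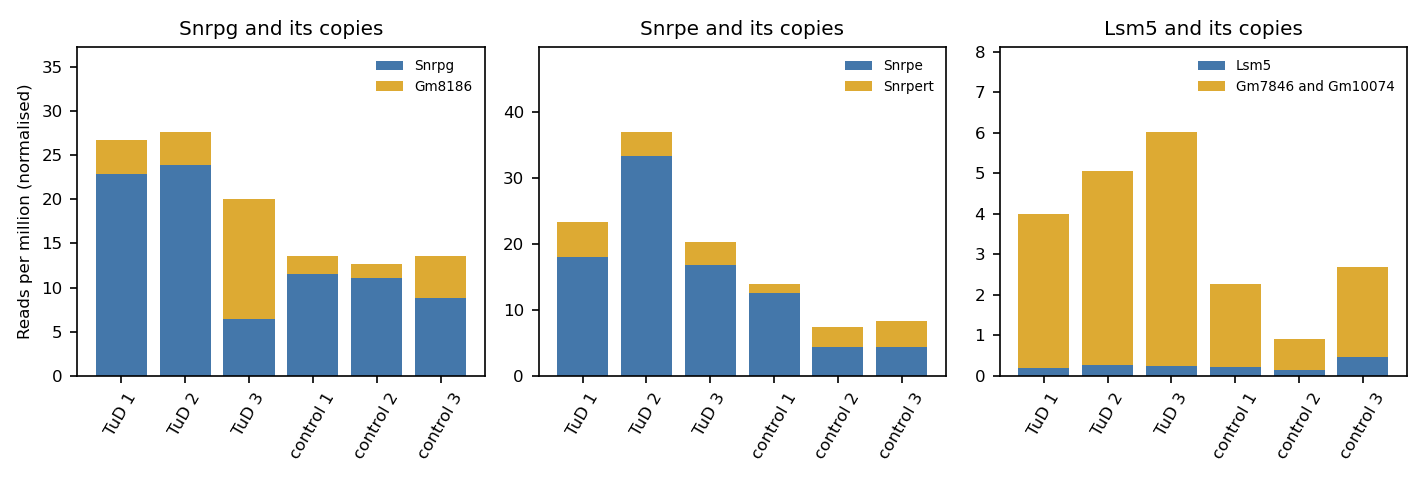
Normalised RPM in each library for Snrpg, Snrpe and Lsm5 (blue) with their near-identical copies stacked on top (yellow), TuD libraries left of control libraries. RPM is reads per megaread of the library total implied by the deposited FPKM, divided by the size factor. The stacked totals of the 3 TuD libraries exceed those of the 3 control libraries in all 3 panels, although Snrpg alone does not in TuD replicate 3.

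U2 A' and B'', the RNA-binding pair that is specific to the U2 particle, both rose. Snrpa1, which encodes U2 A', had 7.59, 7.78 and 5.82 FPKM in TuD hearts, against 3.61, 4.12 and 3.58 FPKM in control hearts. Snrpb2, which encodes U2 B'', had 3.65, 4.31 and 4.77 FPKM in TuD hearts, against 2.52, 2.002 and 2.21 FPKM in control hearts. Neither gene's groups overlapped, and the library at the bottom of the TuD group differed, replicate 3 for Snrpa1 and replicate 1 for Snrpb2. The log2 fold change was 0.82 ± 0.13 for Snrpa1 (adjusted p = 0.00559, limma) and 0.79 ± 0.14 for Snrpb2 (adjusted p = 0.00616, limma). Snrpa1 was the 1 gene of the 13 that passed under every one of the 21 alternatives run.

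The U1-specific genes did not pass, 0 of 3, with a median log2 fold change of 0.14. Snrpc, which encodes the zinc-finger protein C of U1 at the start of the intron, had 5.89, 7.37 and 5.08 FPKM in TuD hearts, against 4.50, 4.32 and 5.27 FPKM in control hearts. Control replicate 3 overlapped the TuD range, and the log2 fold change was 0.34 ± 0.15 (adjusted p = 0.120, limma; 0.0433 without TuD replicate 3). Snrnp70, the 70K protein of U1, had 6.49, 5.82 and 5.46 FPKM in TuD hearts, against 5.54, 4.57 and 5.93 FPKM in control hearts. Snrpa, protein A of U1, had 14.3, 17.6 and 11.1 FPKM in TuD hearts, against 11.9, 14.1 and 13.4 FPKM in control hearts. Both overlapped between groups, with log2 fold changes of 0.14 ± 0.13 for Snrnp70 (adjusted p = 0.433, limma) and 0.10 ± 0.16 for Snrpa (adjusted p = 0.671, limma).

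Of 8 LSm genes tested, 4 were higher (Lsm6, Lsm4, Lsm8 and Lsm7) and 0 lower, with a median log2 fold change of 0.42. These 4 make up 50%, against 15.0% of all tested genes. LSm2 through LSm8 make up the ring on U6 RNA in the nucleus, in which Lsm8 takes the place that Lsm1 holds in the cytoplasmic ring of RNA decay. Lsm6, shared by both rings, had 8.33, 8.21 and 6.58 FPKM in TuD hearts, against 4.24, 3.17 and 4.32 FPKM in control hearts. The groups were far apart, at a log2 fold change of 0.90 ± 0.15 (adjusted p = 0.00557, limma). Lsm4, the most abundant LSm transcript per unit length, had 83.9, 106 and 82.8 FPKM in TuD hearts, against 65.2, 61.5 and 62.4 FPKM in control hearts. It stood above the controls in each TuD library, at a log2 fold change of 0.51 ± 0.12 (adjusted p = 0.0166, limma).

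Lsm8 and Lsm1 mark the nuclear and the cytoplasmic ring. Lsm8 had 2.39, 2.08 and 2.73 FPKM in TuD hearts, against 1.64, 1.11 and 1.45 FPKM in control hearts. The TuD values all lay above the controls, at a log2 fold change of 0.61 ± 0.15 (adjusted p = 0.0217, limma). Lsm1 had 3.58, 5.10 and 4.31 FPKM in TuD hearts, against 3.89, 4.48 and 4.24 FPKM in control hearts. Its groups overlapped throughout, and the log2 fold change of 0.03 ± 0.14 did not pass (adjusted p = 0.892, limma). The difference between the Lsm8 and Lsm1 fold changes was not tested.

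Lsm7, also shared by both rings, had 19.7, 23.4 and 13.4 FPKM in TuD hearts, against 11.1, 9.93 and 12.3 FPKM in control hearts. TuD replicate 3 lay only just above control replicate 3, and the log2 fold change was 0.71 ± 0.19 (adjusted p = 0.0283, limma). The call did not survive the loss of any 1 library other than TuD replicate 3, with adjusted p between 0.0515 and 0.0974 (limma). For Lsm8, leaving out TuD replicate 1, control replicate 2 or control replicate 3 gave adjusted p of 0.0572 to 0.0737, and for Lsm4, leaving out control replicate 2 or 3 gave 0.0619 and 0.0604 (limma).

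The other LSm genes did not pass. Lsm10, which belongs to the U7 particle that trims histone transcripts, had a log2 fold change of 0.33 (adjusted p = 0.0862, limma), with all TuD values above the controls and a call without TuD replicate 3 (adjusted p = 0.0265). Lsm2 had a log2 fold change of 0.22 and Lsm3 of 0.06, both with overlapping groups. Lsm5 alone was listed at 0.248, 0.349 and 0.304 FPKM in TuD hearts, against 0.268, 0.192 and 0.598 FPKM in control hearts, too low to test.

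Near-identical to Lsm5 are 2 processed pseudogenes, Gm7846 on chromosome 1 (97.8% identity) and Gm10074 on chromosome 17 (99.2% identity), which held 92.2% of the reads of the 3 loci. Gm7846 had 42, 47 and 59 reads in TuD hearts, against 17, 12 and 22 reads in control hearts. Gm10074 had 16, 22 and 37 reads in TuD hearts, against 22, 3 and 20 reads in control hearts. Their sum with Lsm5 over the length of Lsm5 was 5.05, 6.37 and 7.59 FPKM in TuD hearts, against 2.88, 1.15 and 3.39 FPKM in control hearts. The sums did not overlap, at a log2 fold change of 1.28 ± 0.30 (adjusted p = 0.0175, limma), again in the alternative chosen after these values were seen. Among the other genes, copies held 17.3% of the reads of Lsm7 and 14.4% of those of U2af1, and their fold changes with copies were 0.68 and 0.53. With copies added, 15 of 33 genes were higher (45.5%, against 15.0% of all tested genes in that fit) and 0 lower. The calls gained were Snrpg and Lsm5. Reads of copies were added for these genes only and not for the other tested genes, so those shares are not like for like.

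The SF3a subunits, which join U2 to SF3b, gave 0 of 3 calls and a median log2 fold change of 0.08. Sf3a3 had 7.51, 9.36 and 6.97 FPKM in TuD hearts, against 6.64, 5.76 and 7.14 FPKM in control hearts. Sf3a1, the largest subunit, had 8.62, 9.34 and 7.97 FPKM in TuD hearts, against 9.20, 10.2 and 9.17 FPKM in control hearts. Sf3a2 had 17.8, 17.4 and 13.3 FPKM in TuD hearts, against 13.8, 15.6 and 15.97 FPKM in control hearts. All 3 overlapped between groups. Log2 fold changes were 0.26 ± 0.14 for Sf3a3 (adjusted p = 0.180), -0.13 ± 0.11 for Sf3a1 (adjusted p = 0.369) and 0.08 ± 0.13 for Sf3a2 (adjusted p = 0.672, limma). Sf3a2 overlaps Plekhj1 on the opposite strand by 429 bases, so its reads are uncertain in the same way as those of Snrpd3.

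Of the 6 SF3b subunits, 1 was higher (16.7%, against 15.0% of all tested genes), Sf3b5, a small subunit. It had 12.9, 15.4 and 12.001 FPKM in TuD hearts, against 9.30, 9.08 and 9.77 FPKM in control hearts. Each TuD library exceeded each control library, at a log2 fold change of 0.49 ± 0.12 (adjusted p = 0.0173, limma). Without control replicate 1 or 2 the adjusted p was 0.0505 and 0.0637 (limma).

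Sf3b6, the small protein also called p14 that sits at the branch point, had 8.13, 11.7 and 8.74 FPKM in TuD hearts, against 7.37, 5.87 and 7.06 FPKM in control hearts. Its groups did not overlap, and the log2 fold change of 0.45 ± 0.15 narrowly missed the threshold (adjusted p = 0.0584, limma). Sf3b3, a large scaffold subunit, had 5.15, 4.97 and 4.15 FPKM in TuD hearts, against 5.96, 6.54 and 5.99 FPKM in control hearts. All its TuD values lay below all its control values, at a log2 fold change of -0.35 ± 0.12 (adjusted p = 0.0546, limma). Testing genes at 5 FPKM or more gave adjusted p of 0.0462 for Sf3b3 and 0.0454 for Sf3b6 (limma). Sf3b3 overlaps Cog4 on the opposite strand by 188 bases.

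Sf3b1, the subunit that holds the branch-point helix, had 6.49, 5.80 and 7.02 FPKM in TuD hearts, against 6.38, 5.28 and 5.35 FPKM in control hearts. Sf3b4 had 10.8, 12.3 and 9.84 FPKM in TuD hearts, against 10.98, 10.5 and 10.7 FPKM in control hearts. Both overlapped, with log2 fold changes of 0.17 ± 0.12 for Sf3b1 (adjusted p = 0.311) and 0.02 ± 0.11 for Sf3b4 (adjusted p = 0.888, limma). Sf3b2, the most abundant of the 6 per unit length at a mean of 52.0 FPKM in TuD hearts and 55.7 FPKM in control hearts, had a log2 fold change of -0.10 and did not pass.

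The U2AF subunits, which recognise the end of the intron together, had fold changes of opposite sign. U2af1, the small subunit that reads the terminal AG, had 28.9, 36.8 and 25.3 FPKM in TuD hearts, against 23.3, 19.6 and 21.2 FPKM in control hearts. U2af2, the large subunit that binds the polypyrimidine tract, had 17.5, 18.9 and 14.9 FPKM in TuD hearts, against 20.1, 19.4 and 18.9 FPKM in control hearts. For U2af1 all TuD values lay above the controls, and for U2af2 all lay below, though only by a thin margin. U2af1 passed at a log2 fold change of 0.48 ± 0.15 (adjusted p = 0.0420, limma), and U2af2 did not at -0.19 ± 0.11 (adjusted p = 0.231, limma). Leaving out any 1 library other than TuD replicate 3 ended the U2af1 call, with adjusted p between 0.0630 and 0.134 (limma).

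**Figure D3:**
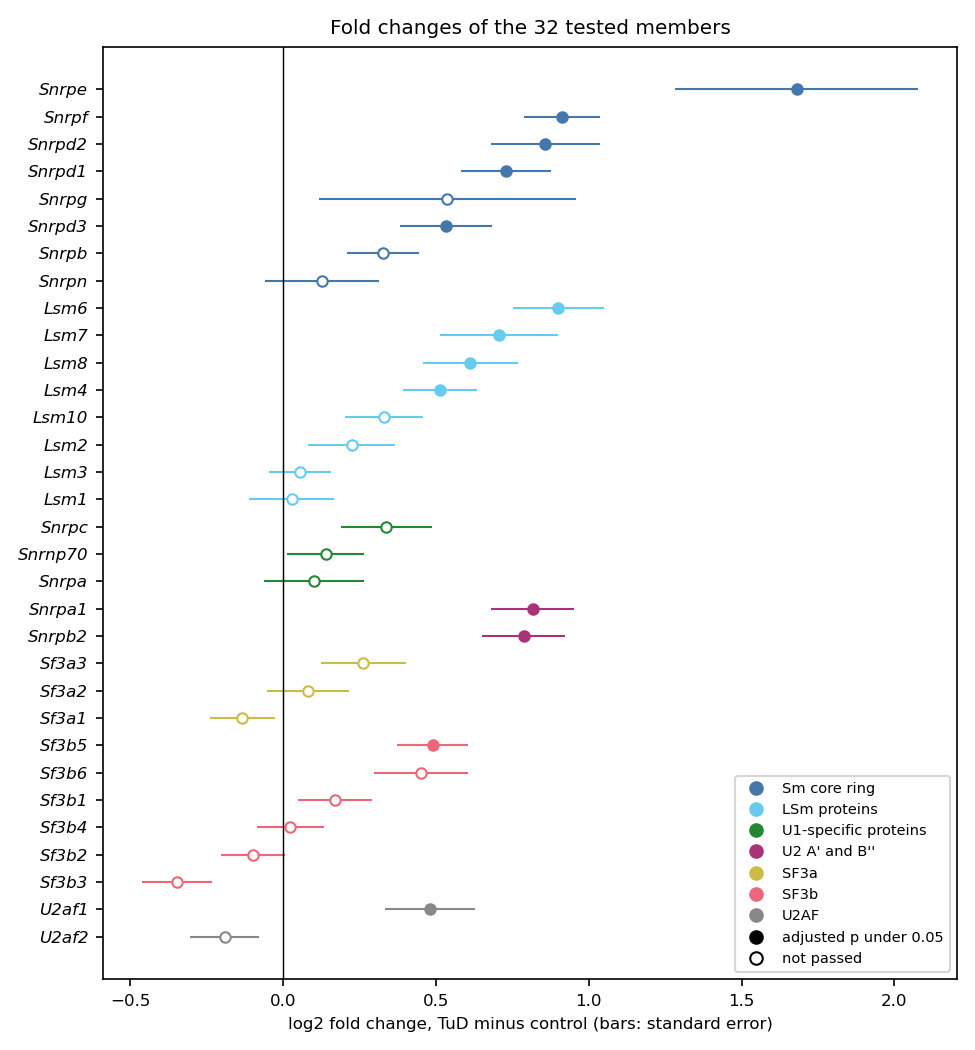
Log2 fold changes (TuD minus control) of the 32 tested genes with standard errors, coloured by role, filled where the adjusted p was under 0.05. The 16 tested Sm and LSm genes sit between 0.03 and 1.68, and the 9 called among them between 0.51 and 1.68. The U2 A' and B'' genes sit at 0.82 and 0.79. The SF3a, SF3b and U2AF genes sit between -0.35 and 0.49, a range that overlaps that of the Sm and LSm genes.

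Set side by side, 9 of 16 Sm and LSm genes (56.3%) and 2 of 11 SF3a, SF3b and U2AF genes (18.2%) were called higher. Among all tested genes 15.0% were, so the second share lies near the background. The median log2 fold changes were 0.54 and 0.08. The ring genes are short: the median gene length was 2068 bases for Sm and LSm genes, 3231 bases for SF3a, SF3b and U2AF genes and 3853 bases for all tested genes. Across the 32 genes, log2 fold change went down with the logarithm of gene length (Pearson r = -0.48, Spearman rho = -0.39), and across all 10460 genes as well (r = -0.39, rho = -0.37). Genes are not independent replicates, and the points share libraries and depth. After removal of the genome-wide length trend, r across the 32 was -0.06 and 10 genes were called higher (31.3%, against 11.4% of all tested genes in that fit). Of the 13 calls, 9 were kept then, and Snrpd1, Lsm4, Lsm7 and U2af1 were not. Log2 fold change also went down with GC content, across the 32 genes (r = -0.43, rho = -0.46) and across 10453 genes (r = -0.24, rho = -0.23). Removing the trends of length and GC content together kept 5: Lsm6, Sf3b5, Snrpa1, Snrpd2 and Snrpd3. These 5 were all the members called higher in that fit (15.6%, against 9.12% of all tested genes). What part length or GC content plays in the counts of calls was not tested beyond these refits.

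**Figure D4:**
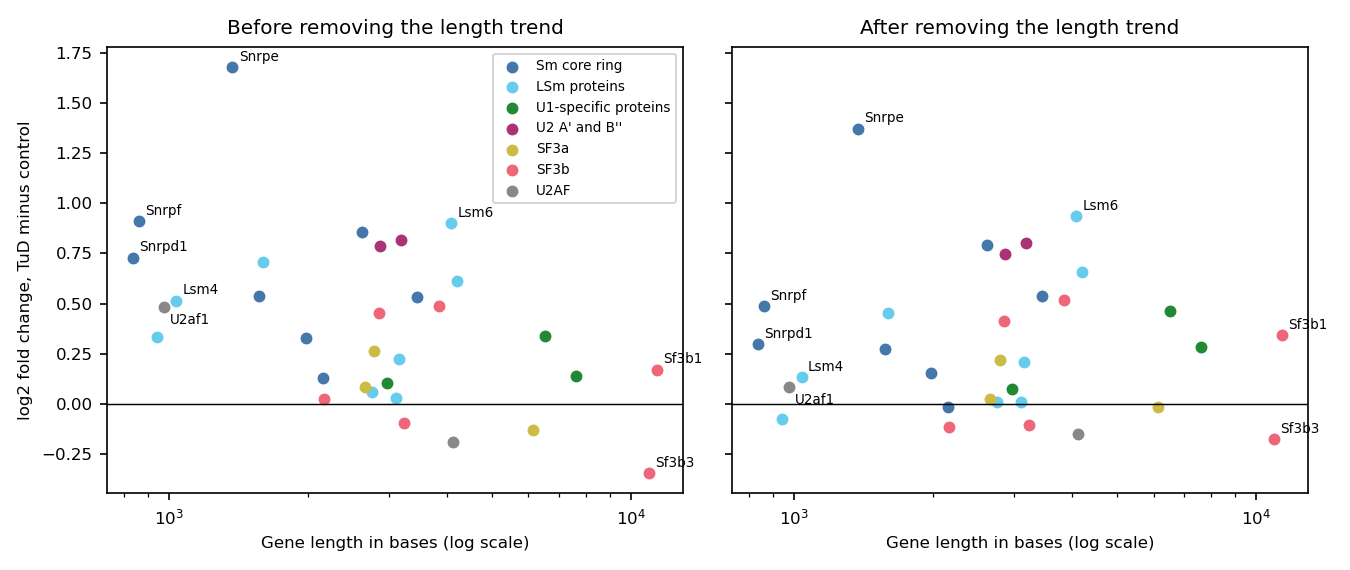
Log2 fold change (TuD minus control) against gene length in bases (log axis) for the 32 tested genes, coloured by role, before (left) and after (right) the length trend of all genes was removed. Short genes such as Snrpf, Snrpd1, Lsm4 and U2af1 move toward 0 on the right, while Lsm6 and Snrpe stay high.

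Other facts of the libraries moved with the groups. Transcripts of 4 Y-linked genes summed to 0.0254, 0.00711 and 12.5 FPKM in TuD replicates 1 to 3, against 9.59, 8.32 and 8.97 FPKM in control replicates 1 to 3. TuD replicates 1 and 2 thus had almost none, and TuD replicate 3 carried them as the controls did. Xist, read as a second check of sex, had 1.42, 0.128 and 0.0166 FPKM in TuD replicates 1 to 3, against 0 in each control library. In TuD replicates 1 and 2, a difference that goes with the Y-linked state cannot be told apart from one that goes with the decoy. TuD replicate 3 lay above all 3 controls in 18 of the 32 tested genes. The share of all tested genes was not computed, so this count says nothing particular to these genes. Among the 18 were the 13 called genes, which the call itself favours, with log2 ratios of TuD replicate 3 to the control mean of 0.22 to 1.17. With the Y-linked state as a covariate, the TuD difference rests on TuD replicate 3 alone against the 3 controls, and that lone library is assumed to vary like the others. This fit called 4 genes higher, against 6.22% of all tested genes, and kept 3 of the 13, Snrpa1, Snrpb2 and Snrpf. Its other call was Snrpn at 0.59, and Snrpg stood at -0.62, both from that 1 TuD library.

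Cell markers also differed. Cardiomyocyte markers, the labelled tissue's own, were abundant in every library, with 3 of 6 called higher. They summed to 24671 to 30937 FPKM in TuD hearts, against 23266 to 24418 FPKM in control hearts. Log2 fold changes of the called markers were 0.77 for Myl2, 0.60 for Tnni3 and 0.56 for Tnnt2. Those of Actc1 (-0.21), Ryr2 (-0.28) and Myh6 (0.05) did not pass. Adipocyte markers summed to 125 to 160 FPKM in TuD hearts, against 61.6 to 73.8 FPKM in control hearts, with both tested markers, Fabp4 and Cfd, called higher. Fabp4 alone made up 122 to 156 FPKM in TuD hearts, against 60.8 to 73.7 FPKM in control hearts, while Adipoq, Plin1 and Retn stayed below 1 FPKM. The sum is thus mostly Fabp4, and which cells carried Fabp4 here was not tested. Fibroblast (125 to 177 FPKM in TuD hearts, 118 to 128 FPKM in control hearts), endothelial (137 to 189 FPKM in TuD hearts, 141 to 178 FPKM in control hearts), macrophage (199 to 394 FPKM in TuD hearts, 195 to 244 FPKM in control hearts) and erythroid markers (1374 to 3292 FPKM in TuD hearts, 1142 to 1604 FPKM in control hearts) overlapped in their sums. Among them Hba-a1, Hba-a2, Lum and Tcf21 were called higher and Col1a2 lower, and no endothelial or macrophage marker was called. Lymphocyte markers summed to 4.36 to 399 FPKM in TuD hearts, nearly all of the top value from Igkc in replicate 3, against 3.30 to 6.36 FPKM in control hearts. No marker was at 0 in all libraries, their part in the splicing genes' differences was not tested, and in bulk tissue fewer cells of a type and less RNA per cell cannot be told apart.

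The decoy's target is miR-199a, whose mature arms are printed with the seed (bases 2 to 8) in capitals, from RefSeq (GRCm38.p6).
miR-199a-3p: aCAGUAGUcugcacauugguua
miR-199a-5p: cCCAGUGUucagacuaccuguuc
A match to the 3p seed (ACTACTG) was present in the 3′ UTR of 2 of the 33 genes, Lsm1 and Sf3a1, and in 7.82% of 9548 tested genes with an annotated 3′ UTR. A match to the 5p seed (ACACTGG) was present in 0 of the 33 and in 15.1% of the 9548. Both genes with a 3p match were outside the 13 called, and each site is shown within 22 bases. The match starts at base 1747 of the 1877 bases of the Lsm1 3′ UTR and at base 1174 of the 2406 bases of the Sf3a1 3′ UTR.
Lsm1: cattctgaaACTACTGcgcatg
Sf3a1: tagtttactACTACTGtgttgt
A match is a description of the letters, and coding sequences were not searched.

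RefSeq promoter windows of 300 bases around the gene start (GRCm38.p6) were matched for 26 of the 33 genes. The ETS-family letters CCGGAAG, read on both strands, were present in 11 of the 26 (42.3%), against 18.9% of 7731 tested genes and 9.12% of all 27025 promoters. CCAAT was found in 42.3% of the 26 and 38.4% of tested genes, GGGCGG in 69.2% and 66.6%, and the NRF1 core CGCATGCG in 11.5% and 4.1%. The ETS letters stood in 2 of 10 called genes with a promoter, Snrpb2 and Snrpe, and in 9 of the 16 others. Snrpb2 (called), Sf3b6 and Sf3a2 (neither called) are shown over the last 100 bases before the RefSeq start, with the ETS letters in capitals. The windows are chr2:143062969-143063068, chr12:4817508-4817607 and chr10:80798635-80798734, all on the plus strand. In the deposited table these genes start at 143063039, 4817544 and 80798198. Against those starts the Sf3a2 window lies wholly inside the gene, and the Snrpb2 and Sf3b6 windows run past the start.
Snrpb2: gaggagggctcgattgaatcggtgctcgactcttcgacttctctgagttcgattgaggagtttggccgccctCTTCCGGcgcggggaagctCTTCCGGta
Sf3b6: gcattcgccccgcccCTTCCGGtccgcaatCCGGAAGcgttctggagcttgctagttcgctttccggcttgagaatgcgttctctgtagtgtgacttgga
Sf3a2: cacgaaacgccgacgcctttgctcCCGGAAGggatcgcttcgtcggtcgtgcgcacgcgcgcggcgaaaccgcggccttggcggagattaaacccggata

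Other genes of the splicing pathway were read from 8 lists. Of 108 tested genes on them, 15 were higher (13.9%, against 15.0% of all tested genes) and 7 lower (6.48%, against 14.3%), and their median log2 fold change was 0.13. Other U2 and branch-site factors had 3 higher and 1 lower of 10. Phf5a, an SF3b subunit outside the 33, rose to a mean of 13.7 ± 1.61 FPKM in TuD hearts, against 8.49 ± 1.51 FPKM in control hearts (log2 fold change 0.67, adjusted p = 0.0142, limma). Cherp, a U2-associated protein, fell to 5.99 ± 0.49 FPKM in TuD hearts, against 8.71 ± 0.36 FPKM in control hearts (SD, n = 3 each; log2 fold change -0.51, adjusted p = 0.0107, limma).

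The tri-snRNP list, which holds the U4/U6 and U5 proteins that arrive after U2, had 1 higher and 1 lower of 16. Snrnp27, a small tri-snRNP protein, had a log2 fold change of 0.81 (adjusted p = 0.00275, limma) and Prpf8, the large U5 scaffold at the catalytic centre, one of -0.45 (adjusted p = 0.00922, limma). Prpf8 stood at 18.0 ± 0.42 FPKM in TuD hearts, against 24.9 ± 0.24 FPKM in control hearts. The Prp19 complex and later factors had 3 higher and 1 lower of 23, led by Cwc15 at 0.61 and Syf2 at 0.55. Minor-spliceosome proteins had 1 higher and 0 lower of 6, Zcrb1 at 0.68, while Pdcd7 at -0.34 did not pass.

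Factors that assemble the Sm ring had 2 higher and 1 lower of 14. Wdr77, the partner of the methylase that modifies Sm tails, stood at a log2 fold change of 0.54, and Gemin5, the SMN-complex protein that picks out snRNA, at -0.45. Partners of LSm1-7 decay and of the U7 particle had 0 higher and 1 lower of 6: Patl1, which binds the cytoplasmic LSm ring, at -0.62, with Slbp at 0.28 and not past the threshold. SR proteins had 1 higher and 1 lower of 10 (Srsf3 at 0.48, Srsf4 at -0.59), and hnRNP proteins 4 higher and 1 lower of 23 (Hnrnpa3 at 0.99, Hnrnpul1 at -0.48).

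**Figure D5:**
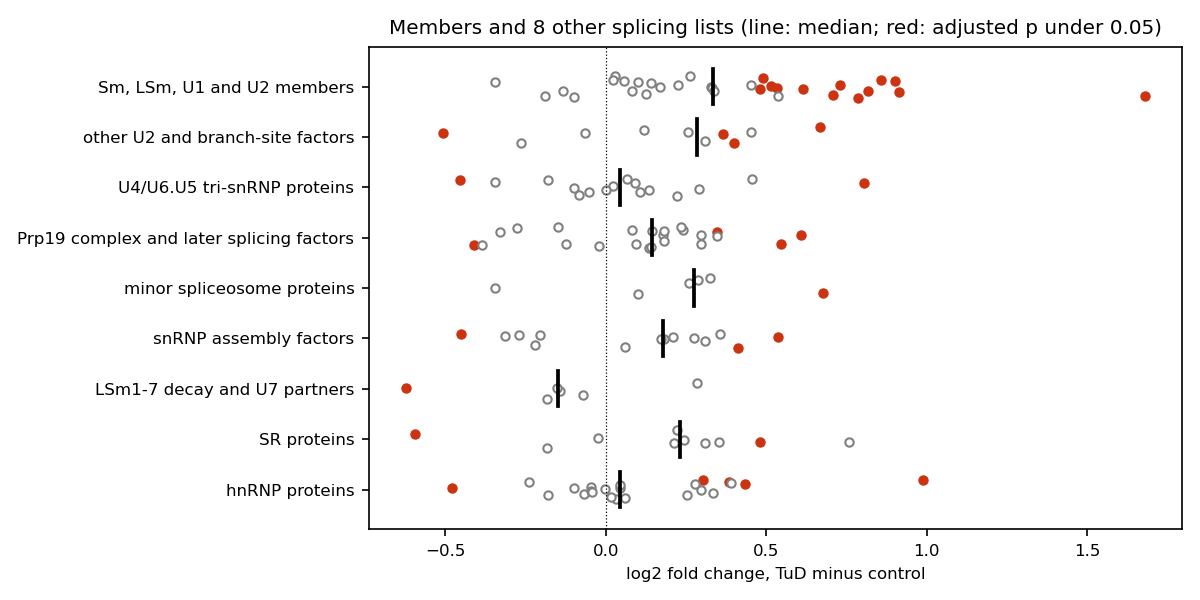
Log2 fold changes (TuD minus control) of the 32 Sm, LSm, U1 and U2 genes and of the tested genes of 8 other splicing lists, 1 point per gene, red where the adjusted p was under 0.05, with a line at each median. The top row has its median at 0.33 and no red point below 0, while 7 of the 8 other lists have 1 red point below 0.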

How the data were processed

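RNA from myocardium was sequenced in 6 libraries, 3 per group, made from total RNA with an NEBNext Ultra kit per the labels' protocols. Samples were grouped by their labels. The submitters' processing notes name HISAT2 2.0.5, featureCounts 1.5.0-p3 and the mm10 genome. The annotation release and strand setting are not given in the sources used here. The authors deposited FPKM for 54532 genes with gene lengths. Whole reads were recovered from FPKM times length for 100% of values above 0, within 0.05 of a read, giving 15.2 to 18.2 M (megareads) per library. Each library's FPKM was scaled by a median-of-ratios factor (0.985 to 1.02) computed on genes at 1 FPKM or more in all 6 libraries.

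Genes at a deposited FPKM of 1 in at least 3 of 6 samples (10460) entered a 2-group limma 3.58.1 model (R 4.3.3, mean-variance trend) on log2 of the value plus 0.5. Tests were two-sided, Benjamini-Hochberg correction covered every tested gene, and the threshold was 0.05. Fold changes are TuD minus control on that log2 scale, which understates changes of low genes. An exact permutation test of 3 against 3 cannot go below p = 0.1, so none is given. The procedure was tested on simulated data.

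Members and lists were chosen with earlier results of these data known. Every member is named. Full values went to the 4 members with the smallest adjusted p in each role group and the one with the largest, and each list is given by its 2 smallest adjusted p. Snrpd3, Snrpb, Snrpg and Lsm5 fall outside that rule and got full values after those were seen. Copies were genes matching at least 150 bases of a coding transcript at 95% identity or more in GENCODE release M21 (GRCm38). In M21, 30 of the 33 members had the same coordinates as in the deposited table. Alternatives were 2 pseudocounts, 2 filters, 3 scalings, a robust variance model, limma-voom on recovered reads, a replicate block, a Y-linked covariate, length and GC trends, leaving out each library, and adding reads of copies, which was chosen after the data were seen.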

Additional observations from a re-analysis of the deposited data

How the results depend on the processing

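The 13 calls stayed positive in sign under all 21 alternatives, except that Lsm8 and Snrpb2 were not tested with the filter of 5 FPKM. Pseudocounts of 0.1 and 1, no size factors, quantile normalization, a robust variance model and added copies kept all 13. The count of 13 higher became 8 with no filter, 6 after rescaling to TPM, 4 with the Y-linked covariate (TuD replicate 3 alone against the controls), 5 with length and GC trends removed, 8 with length trend and replicate block together, and 6 to 17 when 1 library was left out, lowest without control replicate 2 and highest without TuD replicate 3. The 0 lower became 1 with the filter of 5 FPKM (Sf3b3), 5 under TPM (Sf3a1, Sf3b2, Sf3b3, Sf3b4 and U2af2) and 2 with limma-voom (Sf3b3 and U2af2). Over all genes, the 1565 higher became 1010 with no filter, 442 under TPM, 651 with the covariate, 953 with length and GC trends, 957 with length trend and block, and 892 to 1704 with 1 library left out. The 1498 lower became 956 with no filter, 4214 under TPM, 529 with the covariate, 2589 with limma-voom, and 747 to 1605 with 1 library left out. The causes were not tested; the filter changes the number of genes adjusted over.

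Replicate numbers gave correlations between same-numbered deviations of 0.0637, 0.0882 and -0.0554. Whether same-numbered samples share more than a number cannot be told from 3 such values. The replicate block gave 12 higher, with U2af1 lost at an adjusted p of 0.0634 (limma).

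Signs that turned belonged to genes that did not pass. Under TPM, log2 fold changes were -0.0436 for Lsm10, -0.12 for Lsm2, -0.31 for Lsm3, -0.32 for Lsm1, -0.10 for Sf3a3, -0.29 for Sf3a2, -0.19 for Sf3b1, -0.35 for Sf3b4, -0.0578 for Snrpb, -0.25 for Snrpn, -0.0181 for Snrpc, -0.22 for Snrnp70 and -0.27 for Snrpa, where all genes had a median of -0.33. With the covariate they were -0.0339 for Lsm2, -0.17 for Sf3a2, 0.0053 for Sf3b2, -0.12 for Sf3b4, -0.62 for Snrpg and -0.23 for Snrpa. With limma-voom they were -0.0820 for Lsm3, -0.11 for Lsm1, -0.0577 for Sf3a2, -0.12 for Sf3b4, -0.0109 for Snrpn and -0.0394 for Snrpa. With the length trend removed, with or without the block, they were -0.0743 for Lsm10, -0.12 for Sf3b4 and -0.0146 for Snrpn, and with GC as well -0.0146 for Lsm1, 0.0304 for Sf3a1, -0.0102 for Sf3b4 and -0.10 for Snrpn. Leaving out 1 library gave -0.0834 to 0.14 for Lsm1, -0.0565 to 0.0946 for Sf3b4, -0.11 to 0.25 for Snrpn and -0.0530 to 0.27 for Snrpa. Depth limits Lsm5 most, at 3 to 9 reads per library.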
